A study of Homo sapiens with 4 samples.

Results

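Aminoacyl-tRNA synthetases were examined in Jurkat cells, an established human T cell leukemia line, after lentiviral delivery of short hairpin RNAs against SLEAR. The members were 38 named genes: 20 cytosolic synthetase genes, 16 mitochondrial ones, whose symbols end in 2, and the scaffold genes AIMP1 and AIMP2. All 38 had a row in the deposited table, SARS had a second, and these 39 rows stood among 16328. The 3 libraries of SLEAR shRNA, numbered 1 to 3 in their labels, were set against 1 library labelled Control, and values with SLEAR shRNA are given in the order of these numbers. Polyadenylated RNA was read at transcript 3' ends by MAPS (Multiplex Analysis of PolyA-linked Sequences), and each row was given in RPM, its reads scaled to 1000000 reads of the library. The labels do not state what hairpin the Control carried, whether numbers 1 to 3 are different hairpins, or whether cultures were separate, so p-values measure library-to-library spread alone, and that spread can be technical.

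Each synthetase joins 1 amino acid to its transfer RNAs, the step that ties the genetic code to protein sequence. Cytosolic and mitochondrial protein synthesis mostly use enzymes from separate nuclear genes, although GARS and KARS each encode the enzyme for both compartments. In animal cells several cytosolic synthetases sit in a multi-synthetase complex held together by AIMP1, AIMP2 and EEF1E1. Many cytosolic synthetase genes are also known targets of ATF4, the transcription factor of the amino acid response, which acts through C/EBP-ATF response elements.

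Estimated depth was 7048620, 7524253 and 4814166 reads with SLEAR shRNA and 8384890 reads in Control, from the RPM step that 1 read is worth. Each of the 152 member values came to a whole number of reads, with a tolerance of 0.05 reads. SLEAR shRNA-3 stood apart, with 6941 rows at 0, against 2641 and 2314 in the other SLEAR shRNA libraries and 2984 in Control. Results that rest on SLEAR shRNA-3 are therefore given with and without it. The 9 T cell markers summed to between 4172 and 4329 RPM with SLEAR shRNA and to 3840 RPM in Control, mostly from CD3D, CD3E, CD247 and LCK. CD3D, LCK and CD7 were above Control in all 3 SLEAR shRNA libraries. CD3E, CD247, CD2 and CD5 were above it in SLEAR shRNA-1 and -2 and below it in SLEAR shRNA-3. CD28 was below Control in all 3, at 1.28, 2.92 and 0 RPM against 7.87 RPM. CD3G was at 0 RPM in every SLEAR shRNA library and 0.239 RPM in Control. Of 20 markers of other cell types, 9 had a row and, apart from CD79A, none of these 9 was above 2.15 RPM. CD79A, a B cell antigen receptor component, was at 20.7, 18.3 and 21.6 RPM with SLEAR shRNA, against 12 RPM in Control, and its part in the results was not tested. The SLEAR transcript is not analysed here, and how far it was reduced is therefore not known.

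Cytosolic synthetases mostly lay at or above their Control level in SLEAR shRNA-1 and -2. Of 19 tested cytosolic rows, where tested means that some library reached 1 RPM, 8 were above Control in all 3 SLEAR shRNA libraries, against 17.8% of all 12350 tested rows, and 0 were below in all 3, against 28.6%. FARSB, which was not tested, was below Control in all 3 at under 1 RPM. The 8 above Control were AARS, CARS, FARSA, KARS, MARS, RARS, SARS and VARS, of which VARS averaged 108 ± 9.29 RPM (SD, n = 3) with SLEAR shRNA, against 63.7 RPM in Control. Of 15 tested mitochondrial rows, SARS2 and CARS2 were above Control in all 3 libraries and 5, IARS2, EARS2, HARS2, MARS2 and WARS2, were below it. In a bulk library, more cells expressing a gene and more RNA per cell cannot be told apart. Across all 4 libraries no member passed the test, a limma-trend fit over all tested rows with Benjamini-Hochberg adjustment, in which 0% of rows were called higher and 0% lower at an adjusted p under 0.05. At an unadjusted p under 0.05 that fit had 1 member, VARS, with 92 rows higher (0.745%) and 239 lower (1.94%) over the table, and limma-voom on estimated reads also called 0 rows, while 69 higher rows (0.559%) and 222 lower ones (1.8%) had an unadjusted p under 0.05. All differences share the single Control library, so the agreement of the SLEAR shRNA libraries also carries whatever error that library has.

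**Figure D1:**
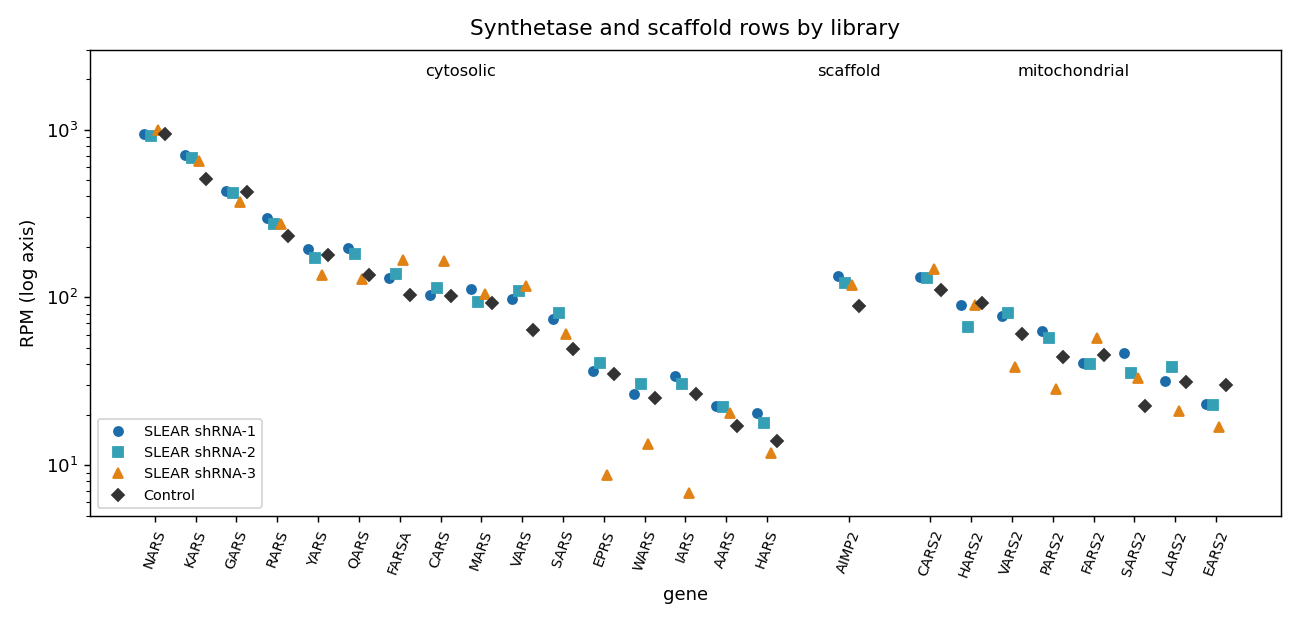
Level of each synthetase or scaffold row with a mean log2(RPM + 1) of at least 4, in RPM on a log axis, 1 point per library. KARS, VARS, FARSA, AIMP2 and SARS2 have all 3 SLEAR shRNA points above the Control diamond, while EPRS and IARS have a low SLEAR shRNA-3 triangle.

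Within the multi-synthetase complex, KARS, the lysyl-tRNA synthetase, was at 704, 675 and 651 RPM with SLEAR shRNA, against 506 RPM in Control. The 3 SLEAR shRNA values lay together and well above Control, whose 95% exact Poisson interval, for counting error only, ran from 491 to 521 RPM. The log2(RPM + 1) difference was 0.42 ± 0.18 (SE), with an adjusted p = 0.993 in limma-trend. AIMP2, the scaffold protein that binds KARS, was at 134, 121 and 118 RPM with SLEAR shRNA, against 88.7 RPM in Control, a log2 difference of 0.48 ± 0.20 (SE). Its 3' end overlaps that of EIF2AK1 on the opposite strand in GENCODE, and whether counting used strand is not stated. The EIF2AK1 row was at 0.568, 1.20 and 0 RPM with SLEAR shRNA and 0.477 RPM in Control. Whether reads of EIF2AK1 were counted in the AIMP2 row was not tested. The EIF2AK1 row cannot show it, because such reads would be missing from that row. RARS, the arginyl-tRNA synthetase, was at 297, 275 and 273 RPM, against 232 RPM in Control. For these 3 genes the counting intervals of all 3 SLEAR shRNA libraries lay above that of Control. The same held for 4.83% of all tested rows and for 9.77% of rows with a mean log2(RPM + 1) of at least 4. KARS and RARS are among 12 members with a named pseudogene in GENCODE that could share reads, which leaves their levels uncertain; the others are AARS, CARS, FARSB, GARS, NARS, WARS, IARS2, TARS2, WARS2 and AIMP1.

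Other enzymes of the complex were less even. QARS, the glutaminyl-tRNA synthetase, was at 197, 180 and 128 RPM with SLEAR shRNA, against 136 RPM in Control. It was above Control in SLEAR shRNA-1 and -2 and slightly below it in SLEAR shRNA-3. MARS, the methionyl-tRNA synthetase, was at 113, 93.7 and 105 RPM, against 92.5 RPM in Control, so that SLEAR shRNA-2 was inside the Control counting interval of 86.1 to 99.3 RPM. The 3' end of MARS is overlapped from the opposite strand by DDIT3, at 9.65, 8.77 and 6.23 RPM with SLEAR shRNA and 8.35 RPM in Control. EPRS, which charges both glutamate and proline, was at 36.3, 40.5 and 8.72 RPM with SLEAR shRNA, against 35.1 RPM in Control. IARS, the isoleucyl-tRNA synthetase, was at 33.9, 30.6 and 6.85 RPM against 26.5 RPM in Control. In EPRS and IARS the level in SLEAR shRNA-3 was 0.249 and 0.259 times the lowest value in the other libraries. LARS, the leucyl-tRNA synthetase, was lower in level, at 11.8, 15.8 and 8.72 RPM against 10.1 RPM in Control, and AIMP1 was at 10.8, 8.77 and 10.8 RPM against 9.78 RPM. The DARS row, for aspartate, was near the floor, at 1.14, 0.133 and 0 RPM against 0.477 RPM in Control. EEF1E1, the third scaffold subunit, was at 7.52, 4.39 and 0.415 RPM with SLEAR shRNA and 4.29 RPM in Control in its higher row. Of the 10 complex members on the list, all tested, 4 were above Control in all 3 libraries, against 17.8% of all tested rows, and 0 were below, against 28.6%.

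Among cytosolic enzymes outside the complex, VARS, the valyl-tRNA synthetase, had the largest difference from Control of the 16 cytosolic rows with a mean log2(RPM + 1) of at least 4. It was at 97.9, 109 and 116 RPM with SLEAR shRNA, against 63.7 RPM in Control, a log2 difference of 0.75 ± 0.22 (SE) with an unadjusted p = 0.022 and an adjusted p = 0.993 in limma-trend. No SLEAR shRNA value overlapped the Control counting interval of 58.4 to 69.3 RPM. FARSA, the catalytic subunit of the cytosolic phenylalanyl-tRNA synthetase, was at 131, 138 and 167 RPM, against 103 RPM in Control, and also stood clear of it in all 3 libraries. FARSB, the other subunit of that enzyme, was at 0, 0.133 and 0 RPM, against 0.239 RPM in Control, under the 3-read floor in every library, and was not tested. SARS, the seryl-tRNA synthetase, was at 73.8, 80.7 and 60.4 RPM, against 49.4 RPM in Control, a log2 difference of 0.52 ± 0.27 (SE). Its second row, for a non-coding transcript, was at 8.51, 4.25 and 0 RPM, against 7.99 RPM in Control.

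AARS, for alanine, was at 22.4, 22.1 and 20.4 RPM with SLEAR shRNA, against 17.1 RPM in Control, whose counting interval reached 20.1 RPM. CARS, for cysteine, was at 103, 113 and 164 RPM, against 101 RPM in Control, so that SLEAR shRNA-3 carried most of its difference. Several abundant rows stayed close to Control in SLEAR shRNA-1 and -2. NARS, for asparagine, was at 936, 914 and 996 RPM, against 938 RPM in Control, a log2 difference of 0.02 ± 0.19 (SE). GARS, for glycine, was at 430.2, 419 and 369 RPM, against 422 RPM in Control, a log2 difference of -0.06 ± 0.19 (SE), and YARS, for tyrosine, was at 195, 171 and 136 RPM, against 178 RPM in Control. In GARS and YARS the SLEAR shRNA values lay on both sides of Control. The counting interval of SLEAR shRNA-3 lay above that of Control for NARS and below it for GARS and YARS. HARS, for histidine, was at 20.6, 17.8 and 11.8 RPM against 13.8 RPM in Control, and WARS, for tryptophan, at 26.5, 30.4 and 13.3 RPM against 25.2 RPM. HARS and WARS are overlapped at the 3' end by a gene on the opposite strand, which for HARS is WDR55, at 105, 107 and 103 RPM with SLEAR shRNA and 94.3 RPM in Control. TARS, for threonine, stood furthest apart in SLEAR shRNA-3, at 29.4, 19.4 and 1.25 RPM against 26 RPM in Control. Of the 19 tested cytosolic rows, 4 (DARS, EPRS, IARS and TARS) were in SLEAR shRNA-3 at under 0.5 times every other library. This held for 27.8% of all tested rows. Among rows with a mean log2(RPM + 1) of at least 4, it held for 2 of 16 cytosolic rows (EPRS and IARS), against 6.95% of all such rows.

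**Figure D2:**
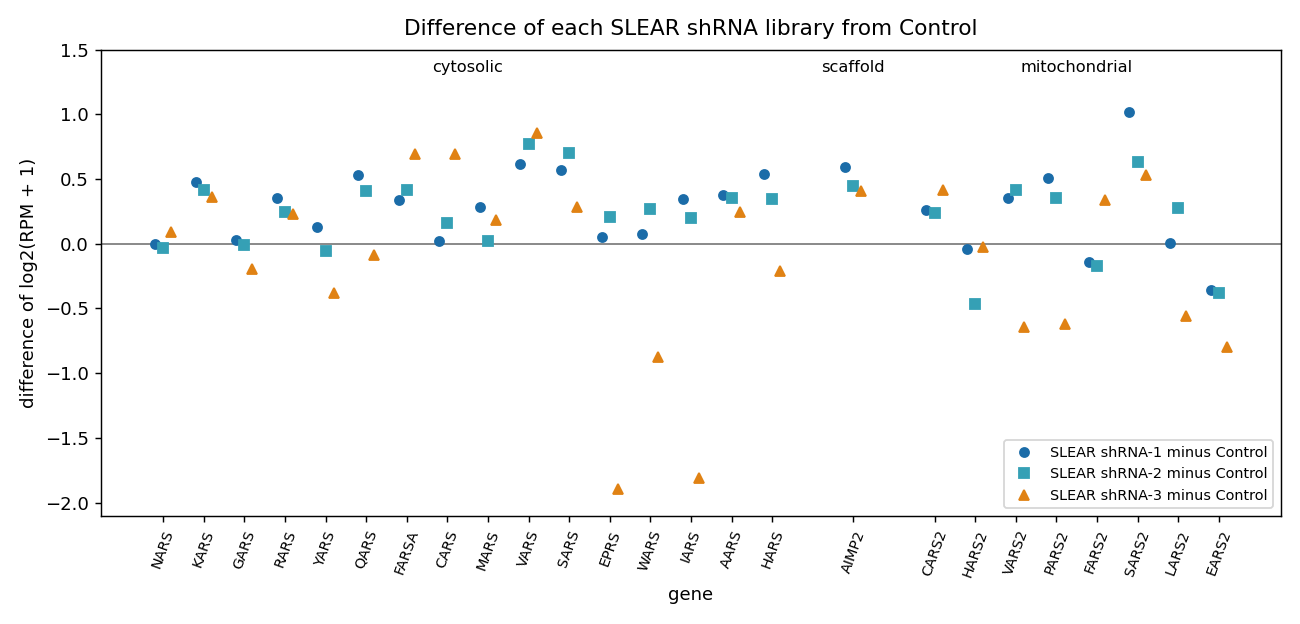
Difference of log2(RPM + 1) between each SLEAR shRNA library and Control for the same genes, 1 point per library, with a line at 0. VARS, KARS, FARSA, SARS, AIMP2 and SARS2 have all 3 points above 0, EARS2 and HARS2 have all 3 below, and the SLEAR shRNA-3 triangles of EPRS and IARS lie near -1.89 and -1.81.

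Promoters of the members were searched for the core of the C/EBP-ATF response element, TGATGNAA, on both strands, because ATF4 is a known regulator of many cytosolic synthetase genes. A promoter was 250 bases before to 50 bases after the RefSeq start (GRCh38.p14), and 32 members had one in the table used. DARS, LARS, VARS, YARS, AARS2 and VARS2 had none there and were not searched. The core was found in 6 of 16 cytosolic promoters, in 1 of 14 mitochondrial ones, that of YARS2, and in neither scaffold promoter, against 3.67% of 27305 promoters of the same length. All 6 cytosolic matches begin between 187 bases before and 15 bases after the start. The 6 windows are shown to make the shared element visible, with the match in capitals and 11 bases on each side, in the direction of transcription. TTGCATCA is the same core read from the other strand.
AARS (chr16:70289675-70289704, minus strand): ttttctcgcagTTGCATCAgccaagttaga
CARS (chr11:3057407-3057436, minus strand): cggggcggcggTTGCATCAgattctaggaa
IARS (chr9:92293692-92293721, minus strand): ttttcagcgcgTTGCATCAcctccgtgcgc
MARS (chr12:57488053-57488082, plus strand): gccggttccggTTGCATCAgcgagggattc
NARS (chr18:57621804-57621833, minus strand): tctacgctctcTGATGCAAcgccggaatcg
TARS (chr5:33440956-33440985, plus strand): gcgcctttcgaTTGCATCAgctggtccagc

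The 6 genes with this core did not share 1 pattern across the libraries. AARS, CARS and MARS were above Control in all 3 SLEAR shRNA libraries. NARS was close to Control in SLEAR shRNA-1 and -2, and IARS and TARS were low in SLEAR shRNA-3. Their median log2(RPM + 1) difference from Control was 0.23, 0.09 and 0.13 in the 3 SLEAR shRNA libraries, against 0.35, 0.34 and -0.08 for the 9 tested cytosolic genes whose promoter was searched and held no match. KARS, FARSA, SARS and QARS are among those without a match in this window, and VARS was not searched. A second core, GCATGCGC, which is that of NRF1, a known activator of nuclear genes for mitochondrial proteins, was found on either strand in 0 of 16 cytosolic and 2 of 14 mitochondrial promoters, those of MARS2 and YARS2, against 3.27% of all promoters. The 2 MARS2 matches, 1 on each strand, overlap each other. A match is a string of letters and does not show that a factor binds there.

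Mitochondrial synthetases had lower rows and no common direction. SARS2, the mitochondrial seryl-tRNA synthetase, was at 46.5, 35.2 and 32.8 RPM with SLEAR shRNA, against 22.4 RPM in Control, a log2 difference of 0.73 ± 0.34 (SE) with an adjusted p = 0.993 in limma-trend. All 3 SLEAR shRNA values lay above the Control counting interval of 19.3 to 25.9 RPM, as did those of its cytosolic counterpart SARS above its own interval of 44.7 to 54.4 RPM. For SARS the counting interval of SLEAR shRNA-3 began at 53.7 RPM and overlapped that of Control, while for SARS2 all 3 were apart from it. SARS2 overlaps a second annotated gene of the same strand at its 3' end, so its reads are uncertain. CARS2, for cysteine, was at 132, 130.1 and 147 RPM, against 110.3 RPM in Control, and its counting intervals were apart from Control in all 3 libraries. VARS2 and PARS2, for valine and proline, were above Control in SLEAR shRNA-1 and -2 and below it in SLEAR shRNA-3. VARS2 was at 77.2, 80.5 and 38.2 RPM, against 60.1 RPM in Control. PARS2 was at 63.4, 56.9 and 28.5 RPM, against 44.2 RPM in Control.

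In the other direction, IARS2, the mitochondrial isoleucyl-tRNA synthetase, was at 4.82, 6.65 and 8.93 RPM with SLEAR shRNA, against 14.7 RPM in Control, a log2 difference of -1.04 ± 0.64 (SE). It was the 1 member whose counting intervals were below that of Control in all 3 libraries, a pattern held by 6.9% of all tested rows. EARS2, for glutamate, was at 23.3, 22.9 and 16.8 RPM, against 30.1 RPM in Control, a log2 difference of -0.51 ± 0.38 (SE). HARS2, for histidine, was at 89.5, 66.7 and 90.6 RPM, against 92.3 RPM in Control, so that only SLEAR shRNA-2 lay outside the Control interval of 85.9 to 99 RPM. HARS2 shares its 3' region with ZMAT2 on the same strand. FARS2, for phenylalanine, was at 40.7, 40 and 57.1 RPM, against 45.1 RPM in Control, and LARS2, for leucine, at 31.5, 38.3 and 21 RPM, against 31.4 RPM.

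The other mitochondrial rows were under 7 RPM in every library, where the floor of 3 reads is worth 0.426, 0.399 and 0.623 RPM with SLEAR shRNA and 0.358 RPM in Control. AARS2, MARS2, WARS2 and YARS2 were at 0 in SLEAR shRNA-3, which allows up to 0.623 RPM there. In the other SLEAR shRNA libraries AARS2 was at 4.26 and 6.78 RPM, against 1.79 RPM in Control, and YARS2 at 2.13 and 3.06 RPM, against 0 RPM in Control. MARS2 was at 2.13 and 2.53 RPM, against 3.94 RPM in Control, and WARS2 at 5.53 and 6.38 RPM, against 6.92 RPM. RARS2, for arginine, was at 6.67, 4.78 and 1.87 RPM, against 6.56 RPM in Control, and NARS2 was between 0.665 and 1.45 RPM with SLEAR shRNA and at 0.835 RPM in Control. TARS2 was under 1 RPM in every library and was not tested. The Control counting intervals, 1 to 2.95 RPM for AARS2 and 5.25 to 8.94 RPM for WARS2, were wide for their level.

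Set side by side, the cytosolic list had the higher median in each SLEAR shRNA library among tested genes, but not in SLEAR shRNA-2 at higher levels. The median log2(RPM + 1) difference from Control over 19 tested cytosolic genes was 0.34, 0.24 and -0.08 in the 3 SLEAR shRNA libraries. Over 15 tested mitochondrial genes it was 0.02, -0.10 and -0.62, and over all tested rows -0.02, -0.04 and -0.23. Above Control in both SLEAR shRNA-1 and -2 were 14 of the 19 cytosolic and 7 of the 15 mitochondrial genes, against 35.2% of tested rows, and below it in both were 1 and 6, against 41%. The gap between the lists was smaller in each library at higher levels. Among rows with a mean log2(RPM + 1) of at least 4, the medians were 0.34, 0.25 and 0.13 for 16 cytosolic genes, 0.13, 0.26 and -0.29 for 8 mitochondrial genes and 0.02, -0.01 and -0.03 for all 4851 rows. At that level 8 of 16 cytosolic and 2 of 8 mitochondrial genes were above Control in all 3 libraries, where 25% of all such rows were, and 0 and 2 were below it, where 25.6% were. Counting intervals were above Control in all 3 libraries for 7 of 25 members at that level, namely KARS, RARS, AIMP2, VARS, FARSA, SARS2 and CARS2, against 9.77% of such rows, and below it for 0, against 10%. GARS and KARS, which encode the enzyme for both compartments, were counted as cytosolic. The difference between the lists was not tested.

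**Figure D3:**
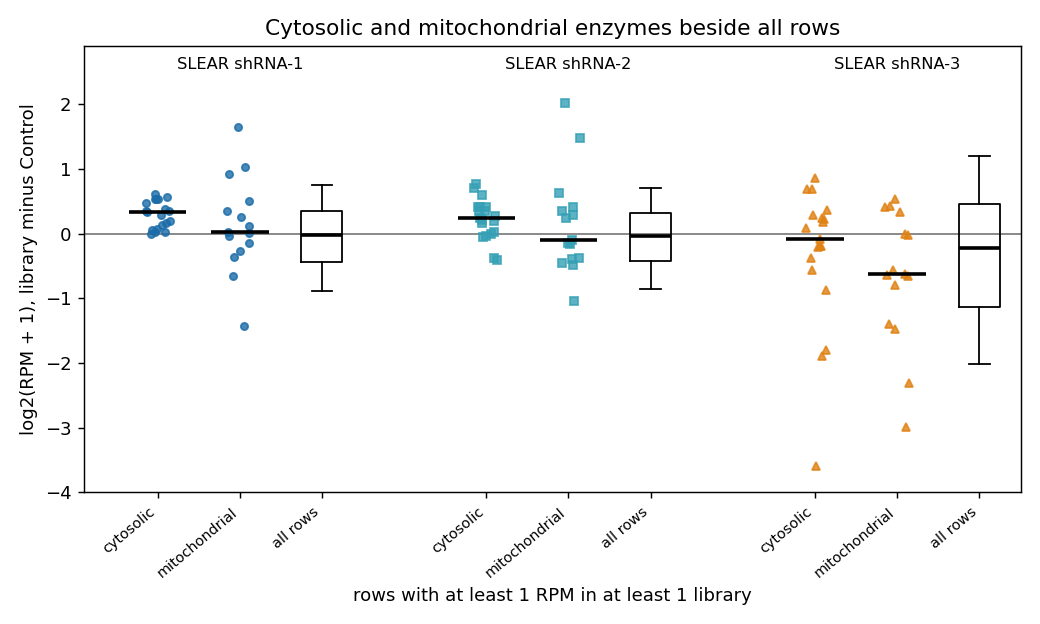
Difference of log2(RPM + 1) from Control in each SLEAR shRNA library for tested cytosolic genes, tested mitochondrial genes and all 12350 tested rows. Points are genes, thick lines are medians, boxes run between percentiles 25 and 75 of all rows and whiskers run between percentiles 10 and 90. In SLEAR shRNA-1 and -2 the cytosolic medians, 0.34 and 0.24, lie above those of all rows, and in SLEAR shRNA-3 both lists spread widely.

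Without SLEAR shRNA-3 and among the 4851 rows with a mean log2(RPM + 1) of at least 4, 6 of 25 members rose (limma-trend, threshold of 0.05 on the adjusted p), where 7.11% of all such rows were called higher, and 0 members fell, where 7.26% were called lower. These were VARS (log2 difference 0.69 ± 0.18 SE, adjusted p = 0.00325), SARS2 (0.82 ± 0.23, adjusted p = 0.00737), KARS (0.45 ± 0.13, adjusted p = 0.00885), SARS (0.63 ± 0.19, adjusted p = 0.0131), AIMP2 (0.52 ± 0.17, adjusted p = 0.0253) and QARS (0.47 ± 0.16, adjusted p = 0.0288). The first 5 of these were also above Control in SLEAR shRNA-3, and QARS was not. These calls needed both choices: leaving out SLEAR shRNA-3 with all 12350 tested rows gave 0 calls, with a smallest adjusted p of 0.368, and the higher level with all libraries gave 0 calls, with a smallest adjusted p of 0.982 (limma-trend). At an unadjusted p under 0.05 the table held 775 rows higher and 893 lower without SLEAR shRNA-3, and 71 higher and 63 lower at the higher level. AARS, CARS, FARSA, MARS, RARS and CARS2 also stood above Control in all 3 libraries. They did not pass in the fit without SLEAR shRNA-3 at the higher level, with log2 differences of 0.36, 0.09, 0.38, 0.15, 0.30 and 0.25. Each row then had 1 residual degree of freedom, and limma shared 1 estimate of the spread over rows of like level. The higher level was a mean over all 4 libraries, so SLEAR shRNA-3 still helped decide which rows and members entered this fit. TARS, with a mean log2(RPM + 1) of 3.80, did not enter. Its value was 1.25 RPM in SLEAR shRNA-3 but at least 19.4 RPM in every other library.

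Genes that work with the synthetases went in both directions. Of 16 tested partner genes, which handle tRNA charging, export and proofreading, 5 were above Control in all 3 libraries, against 17.8% of all tested rows, and 4 were below, against 28.6%. Above Control in both SLEAR shRNA-1 and -2 were 8 of the 16, and below it in both were 6, against 35.2% and 41% of all tested rows. None of the 16 passed the limma-trend test with all libraries, as 0% of tested rows did. PSTK, a kinase that acts on seryl-tRNA in selenocysteine synthesis, was at 5.67, 11.2 and 14.7 RPM with SLEAR shRNA, against 2.62 RPM in Control, and DTD1, a deacylase that clears D-amino acids from tRNA, at 8.51, 6.38 and 21.6 RPM against 4.17 RPM. GATB, a subunit of the mitochondrial glutamyl-tRNA amidotransferase, was at 4.97, 5.45 and 22.8 RPM, against 3.46 RPM in Control, so that SLEAR shRNA-3 carried most of its difference. XPOT, the nuclear export receptor for tRNA, was at 6.81, 11.2 and 10.8 RPM, against 20.6 RPM in Control. SEPHS1 was at 310.3, 286 and 315 RPM against 362 RPM in Control, and SEPSECS, of selenocysteine synthesis, at 6.38, 5.98 and 0.415 RPM against 9.30 RPM.

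The amino acid response list, 25 tested genes, had 6 above Control in all 3 libraries and 5 below, against 17.8% and 28.6% of all tested rows, with 0 past the limma-trend test. Without SLEAR shRNA-3, 9 were above Control in both other SLEAR shRNA libraries and 10 below, against 35.2% and 41%. ATF4 itself was at 1455, 1350.2 and 1345 RPM with SLEAR shRNA, against 1135 RPM in Control, a log2 difference of 0.28 ± 0.19 (SE). ASNS, asparagine synthetase, was at 148, 130.2 and 131 RPM, against 111 RPM in Control. PHGDH, the first enzyme of serine synthesis, was at 444, 409.7 and 379.5 RPM, against 312 RPM in Control, with an adjusted p = 0.0148 without SLEAR shRNA-3 (limma-trend on 4851 rows). It was 1 of 18 genes of this list called higher in that fit, against 7.11% of all such rows, and it was not called with all libraries. Other members lay below Control in all 3 libraries. PSPH, the last enzyme of serine synthesis, was at 18.3, 21.5 and 15.8 RPM, against 31.6 RPM in Control, and the stress-induced factor ATF3 at 19.3, 19.3 and 15.8 RPM, against 32.2 RPM. EIF2AK4, the GCN2 kinase that senses uncharged tRNA, was at 1.14, 2.26 and 0.208 RPM against 2.86 RPM in Control. The median log2 difference of the list was -0.0037, -0.0054 and 0.245 in the 3 SLEAR shRNA libraries. Over all tested rows it was -0.02, -0.04 and -0.23.

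**Figure D4:**
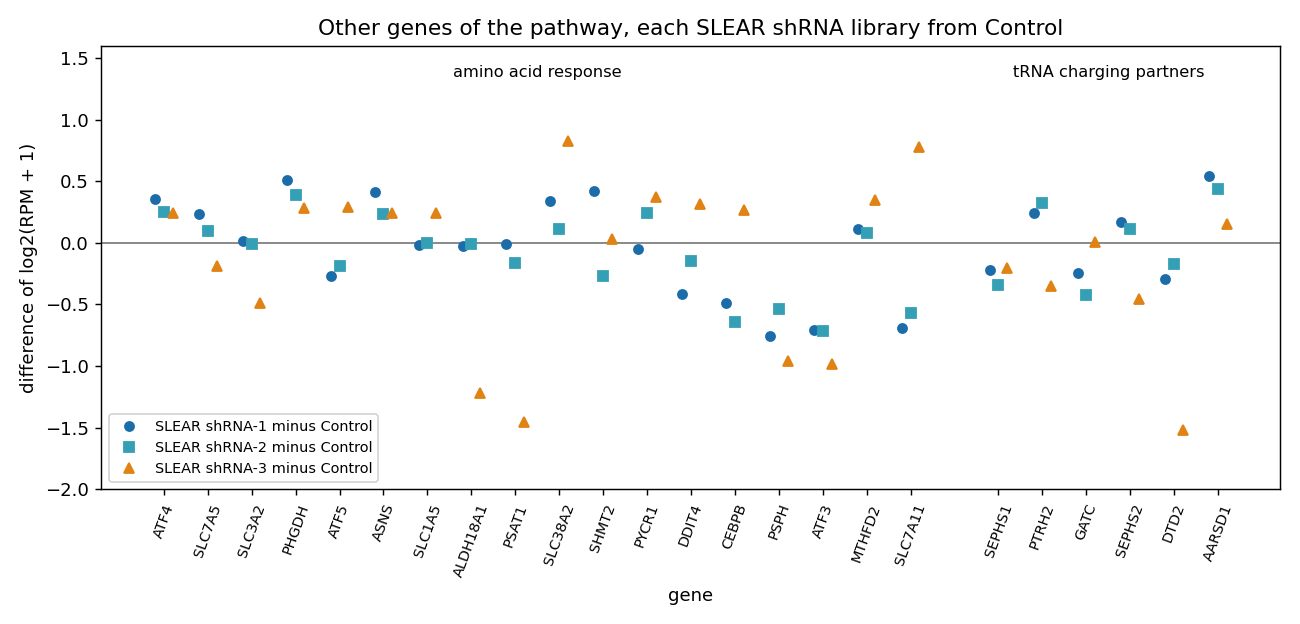
Difference of log2(RPM + 1) from Control in each SLEAR shRNA library for genes of the amino acid response and partner lists with a mean log2(RPM + 1) of at least 4. ATF4, PHGDH and ASNS have all 3 points above 0, and PSPH and ATF3 have all 3 below.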

How the data were processed

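The authors deposited 1 table of RPM values (reads scaled to 1000000 reads of the library), 1 row per transcript group, with RefSeq accessions and gene symbols. Per the submitters' processing notes, hg19, Bowtie2, FastQC and SAMtools were used. The assignment of reads to rows and any use of strand are not given in the sources used here. Member genes were matched by symbol. Identical rows averaging 1 RPM or more were merged, leaving 16151 of 16328. RPM values were tested as log2(RPM + 1) with limma-trend (limma 3.58.1, R 4.3.3) over the 12350 rows that reached 1 RPM in some library (Benjamini-Hochberg adjustment, threshold 0.05). The 1 Control has no replicate, so the SLEAR shRNA libraries alone gave the spread (2 residual degrees of freedom), taken to hold for Control too. Exact Poisson intervals (95%) used reads estimated from the RPM step and cover counting error only, with no molecular identifiers stated. Promoter sequences are RefSeq's (GRCh38.p14), and gene overlaps at the last 1000 bases are from GENCODE 29. The fit was tested on simulated data that gave Control the spread of the SLEAR shRNA libraries, so the spread assumed for Control was not tested. Members named with all values had a mean log2(RPM + 1) of at least 4, and the others are given with their values or range. From the partner and amino acid response lists, the 3 genes with the smallest p in each direction were named; 1 partner gene is not reported here. Members, lists and alternatives were chosen with earlier results of these data known. The alternatives were other pseudocounts (0.1 and 5), filters and scalings, limma-voom, array weights and leaving out each SLEAR shRNA library.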

Additional observations from a re-analysis of the deposited data

How the results depend on the processing

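With all rows, 0 were past the threshold, and 0 members. Leaving out each SLEAR shRNA library gave 0 to 0 in both counts, while the same test with no filter on low values called 377 rows, 1 higher and 376 lower, with 0 members. With a mean log2 of at least 4 and SLEAR shRNA-3 left out, 697 rows and 6 members were called, among them KARS 0.45, QARS 0.47, SARS 0.63, VARS 0.69, SARS2 0.82 and AIMP2 0.52. The cytosolic median lay between 0.10 and 0.27 and the mitochondrial one between -0.14 and -0.01 when 1 library was left out, against 0.20 and 0.01 with all, so the sign of the mitochondrial median is not settled. Of 300 log2 differences for 25 members under 12 alternatives, 267 kept sign and side of the threshold and 27 changed sign. Leaving out 1 library gave -0.92 to 0.13 for EPRS, -0.80 to 0.27 for IARS, -0.40 to 0.17 for WARS, -0.22 to 0.037 for YARS, -0.10 to 0.0089 for GARS, -0.020 to 0.042 for NARS, -0.16 to 0.10 for FARS2, -0.28 to 0.14 for LARS2, -0.13 to 0.43 for PARS2 and -0.14 to 0.39 for VARS2. Without SLEAR shRNA-3 at the higher level the values were EPRS 0.13, GARS 0.0089, IARS 0.27, NARS -0.020, WARS 0.17, YARS 0.037, FARS2 -0.16 and LARS2 0.14. Array weights gave EPRS 0.086, IARS 0.19, NARS -0.021, WARS 0.16, FARS2 -0.14 and LARS2 0.16, and limma-voom gave FARS2 -0.017. The cause was not tested. No paired analysis was possible because the Control has a single library with no number in its label. A count of 0 allows up to 0.623 RPM in SLEAR shRNA-3 and up to 0.358 RPM in Control.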
